A study of Mus musculus with 25 samples.

Results

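CpG sites that were more methylated in mammary fat pads of mice on a calorie-restricted Mediterranean-style diet (MCR) than in mice on control diet are described here. They were chosen on their measured values: a CpG on 1 of the 19 autosomes with an average coverage of at least 10 reads, a value in all 3 MCR mice and in at least 4 of the 5 Control mice, and a mean MCR level at least 20 percentage points above the mean Control level. Of the 283974 CpGs in the deposited table, 120335 met the coverage and value criteria, 75922 of these had a Control mean of 80% or less and so could have been chosen, and 3050 were. By the same size, 23621 CpGs were lower in MCR, so the chosen CpGs are the smaller group and ran against the general direction. Because the difference between MCR and Control made the choice, it is given throughout as a description and carries no test.

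All 25 animals were wild-type C57BL/6N mice, and reduced representation bisulfite sequencing (RRBS) was run on DNA of 1 mammary fat pad each. The Control mice (n = 5) ate the purified diet D12450J. The other groups first became obese on a 60% high-fat diet (D12492) and then stayed obese (Obese, n = 4), ate an unrestricted low-fat diet (LFD, n = 4), or lost weight on low-fat food with calories cut by 30% (LFCR, n = 4), on Mediterranean-style food with the same cut (MCR, n = 3) or under intermittent calorie restriction (ICR, n = 5). Cells of E0771, a mouse mammary cancer line, were injected into the 4th pad of every mouse, controls included, 25 weeks after the first randomization, and the 9th pad on the other side was taken when the tumours reached endpoint. The labels call this tissue normal mammary tissue, yet they also carry the cell line name and the word tumor. In 4 libraries (LFD mouse 46 and Obese mice 27, 28 and 40) the mean level over 34914 CpGs with a Control mean under 5% lay between 49.0% and 49.4%, against 1.10% to 2.05% in the other 21. These 4 were kept out of all group values below, which leaves 3 LFD mice and 1 Obese mouse, and the depth of single values in any library is unknown.

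Methylation of cytosine in CpG pairs is copied to the new strand at each cell division, is usually low at active promoters and CpG islands, and is usually high in the bodies of transcribed genes and in the CpG-poor remainder of the genome, called open sea. A CpG at an intermediate level in a tissue is often methylated in some of its cell types and unmethylated in others, and genes that act in blood cells are known for low methylation there and high methylation elsewhere. A mammary fat pad holds adipocytes, epithelial ducts, vessels, fibroblasts and leukocytes, and in such bulk DNA a shift in cell make-up and a change within cells cannot be told apart.

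Of 32851 RefSeq promoter windows, each running from 250 bases before to 50 bases after a gene's start, 34 held a chosen CpG, and these windows held 45 of the 3050 (1.48%). Of the CpGs that could have been chosen, 4.43% lay in a window, and of those with a Control mean of 10% or more, 2.13%. In 6 windows at least 2 chosen CpGs carried the symbol of the window's own gene: Dok3, Rps6ka1, Atp2b2, Parvg, Vav1 and Hes7. The first 2 and the Vav1 and Parvg windows are shown because the chosen CpGs sit beside the start of genes known from blood cells or growth signalling. The strand is that of the gene, the sequences are RefSeq's for GRCm38.p6 (the mm10 assembly), and capitals mark the chosen CpGs. Dok3, an adaptor protein of B cells and macrophages, lies on the minus strand with its window at chr13:55528489-55528788. Rps6ka1 encodes a kinase downstream of the MAP kinase ERK, with a window on the minus strand at chr4:133872986-133873285. Vav1, a guanine nucleotide exchange factor of blood cells, has its window on the plus strand at chr17:57278850-57279149. Parvg, a parvin that links integrins to actin in blood cells, has its window on the plus strand at chr15:84324470-84324769.
Dok3: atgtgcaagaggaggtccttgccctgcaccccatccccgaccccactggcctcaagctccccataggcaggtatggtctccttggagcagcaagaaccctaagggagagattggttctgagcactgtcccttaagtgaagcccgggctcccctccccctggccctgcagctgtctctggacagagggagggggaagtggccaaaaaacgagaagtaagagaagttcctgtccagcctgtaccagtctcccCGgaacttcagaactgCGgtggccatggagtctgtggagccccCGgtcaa
Rps6ka1: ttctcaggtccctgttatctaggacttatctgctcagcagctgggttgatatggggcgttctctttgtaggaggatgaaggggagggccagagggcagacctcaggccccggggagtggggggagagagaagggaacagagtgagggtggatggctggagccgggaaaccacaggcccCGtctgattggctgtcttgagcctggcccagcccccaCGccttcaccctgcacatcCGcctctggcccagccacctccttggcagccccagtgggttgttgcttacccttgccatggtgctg
Vav1: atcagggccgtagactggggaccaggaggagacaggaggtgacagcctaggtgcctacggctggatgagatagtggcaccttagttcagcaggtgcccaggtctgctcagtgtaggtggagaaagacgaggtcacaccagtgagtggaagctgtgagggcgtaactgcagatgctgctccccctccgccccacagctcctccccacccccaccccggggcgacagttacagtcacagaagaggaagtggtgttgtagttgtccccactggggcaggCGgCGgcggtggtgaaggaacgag
Parvg: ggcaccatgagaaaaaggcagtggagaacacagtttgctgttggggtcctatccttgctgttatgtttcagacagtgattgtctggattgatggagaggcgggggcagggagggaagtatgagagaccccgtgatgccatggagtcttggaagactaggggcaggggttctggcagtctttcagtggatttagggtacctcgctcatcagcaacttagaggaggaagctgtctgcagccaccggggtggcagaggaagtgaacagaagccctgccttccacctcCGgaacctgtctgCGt

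The 3 chosen CpGs of the Dok3 window were also the only ones in it that could have been chosen, and they averaged 31.5% ± 12.2 (SD, n = 5) in Control and 75.4% ± 3.4 (SD, n = 3) in MCR. The 3 of 4 at Rps6ka1 averaged 22.6% ± 8.1 (SD, n = 5) and 63.1% ± 3.9 (SD, n = 3). At Vav1 the chosen pair was lowest of the 4 windows, with 11.3% ± 1.8 (SD, n = 5) in Control and 41.2% ± 6.4 (SD, n = 3) in MCR. The pair at Parvg stood at 21.2% ± 6.4 (SD, n = 5) and 51.7% ± 2.5 (SD, n = 3). In the diets that did not choose them, the Dok3 window read 52.2% ± 16.3 in LFCR (SD, n = 4), 54.2% ± 10.2 in LFD (SD, n = 3) and 41.6% ± 8.2 in ICR (SD, n = 5). The Vav1 window read 26.7% ± 10.1, 19% ± 3.0 and 20.2% ± 5.2 in the same groups. All group means of these 4 windows in LFCR, LFD and ICR lay between the Control and the MCR mean. The choice favoured low Control and high MCR means, so that position is a description only. The chosen pair at Atp2b2, whose window is not shown, averaged 35.9% ± 5.1 (SD, n = 5) in Control and 70.5% ± 4.0 (SD, n = 3) in MCR. The pair at Hes7, also not shown, averaged 34.1% ± 7.6 (SD, n = 5) and 59.1% ± 12.3 (SD, n = 3).

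Letters that ETS-family and RUNX-family factors are known to bind were looked for on both strands of each window. The ETS-type motif GAGGAA was present in 4 of the 6 windows with at least 2 chosen CpGs (Atp2b2, Parvg, Vav1 and Hes7) and in 28.3% of all 32851 windows. The RUNX-type motif TGTGGT was present at Rps6ka1 alone among the 6 and in 16.8% of all windows. With 6 windows these shares are descriptions, and a match is not a binding site.

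Most chosen CpGs lay inside genes and away from CpG islands, and most CpGs that could have been chosen lay inside genes too. By the authors' annotation, 2419 (79.3%) were in gene bodies, 291 (9.54%) in 1st exons, 245 (8.03%) in 3'UTRs, 42 in 5'UTRs, 46 between genes, 6 within the class TSS1500 and 1 within TSS200, the classes upstream of a start. Over all CpGs that could have been chosen, the gene body share was 69.7%, the 1st exon share 18.1% and the 3'UTR share 5.68%. Among those with a Control mean of 10% or more these shares were 75.9%, 13.2% and 6.36%. Open sea held 63.5% of the chosen CpGs against 40.6% of those that could have been chosen, shelves 9.67% against 6.52%, shores 15.4% against 22.0% and islands 11.4% against 30.9%. The contrast was smaller against CpGs that could have been chosen and had a Control mean of 10% or more, of which 51.6% were in open sea and 18.8% in islands. The most frequent combination was open sea in a gene body, with 1581 CpGs.

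**Figure D1:**
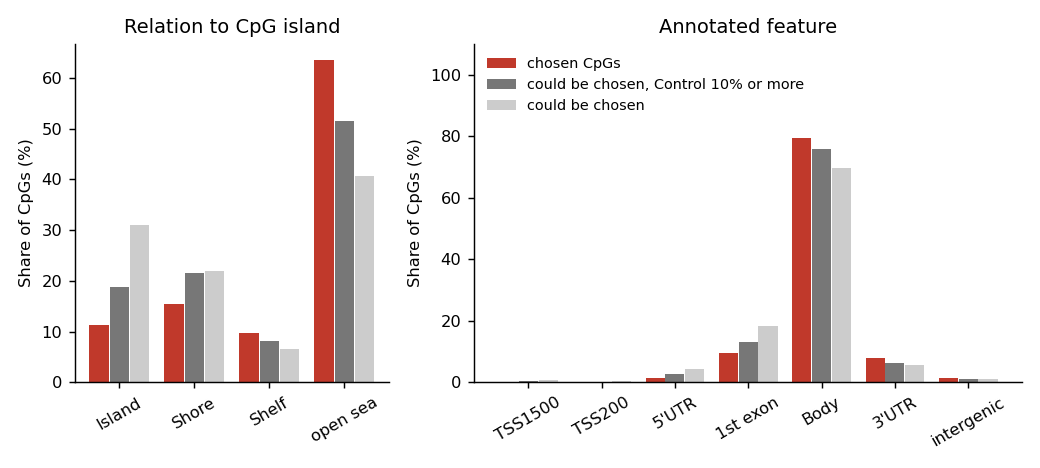
Share of CpGs (%, bars from 0) by relation to a CpG island (left) and by annotated feature (right), for the 3050 chosen CpGs, for CpGs that could have been chosen with a Control mean of 10% or more, and for all 75922 that could have been chosen. Chosen CpGs were in open sea in 63.5% and in islands in 11.4%, against 40.6% and 30.9% of those that could have been chosen.

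The chosen CpGs were at intermediate levels in the Control mice. Their Control mean had a median of 32.7% (quartiles 22.9% and 45.8%), their MCR mean a median of 66.1%, and the difference a median of 27.9 points, up to 63.6. Of the CpGs with a Control mean from 20% to 30%, 12.5% were chosen, the highest share of any band, against 0.297% below 10% and 0.400% from 70% to 80%. Island members were lower than open sea members in the Control mice, with means of 29.7% ± 5.6 and 37.4% ± 5.3 (SD, n = 5 mice each). The average coverage of the chosen CpGs had a median of 62.7 reads, close to the 63.2 of CpGs that could have been chosen. The 3 CpGs just inside the limit, in Baiap2, Gabbr2 and Lbh, differed by 20.008, 20.005 and 20.004 points, and the 3 just outside, at an unnamed site on chromosome 15, in Tnxb and in Dchs1, by 19.993, 19.992 and 19.989 points.

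When neighbours at most 200 bp apart were joined, the 3050 CpGs formed 1250 regions, of which 605 held 1 CpG, 278 held 2 and 367 held 3 or more. The last kind contained 1889 chosen CpGs (61.9%), with 436 CpGs between them that met the criteria but were not chosen, and 23 regions held at least 10. RRBS reads CpGs in clusters, and 72.2% of all CpGs that could have been chosen lay in runs of 3 or more by the same rule. The 61.9% joined only the chosen CpGs, which are far sparser, so these shares cannot be compared. Of 2892 chosen CpGs with a CpG that could have been chosen within 200 bp, the nearest such CpG was itself chosen in 1953 (67.5%), against 1.64% of the 63720 unchosen CpGs with such a neighbour. Neighbouring CpGs often share the same reads. The chosen CpGs carried 914 gene symbols, and 249 CpGs carried none. Of the 914 genes, 584 (63.9%) also had a CpG that was lower in MCR by the same size, against 41.2% of the 9012 genes with a CpG that met the criteria, with no adjustment for the number of CpGs per gene. Prdm16 had 27 chosen and 149 lower CpGs, while Plekhh3 had 53 and 2, and Tbx3, Zfp316 and Dusp8 had 41, 33 and 24 with no lower CpG. The symbol Gm20388 was on 190 chosen CpGs in 68 regions of chromosome 8, many of which also carried another gene's symbol such as Gse1 (61 CpGs), so these are overlapping gene models and not separate counts.

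Levels over all chosen CpGs in the mice that did not choose them were intermediate and uneven. The mean level in Control mice 1, 2, 5, 10 and 13 was 33.2%, 27.9%, 37.7%, 42.3% and 34.8%, and in MCR mice 85, 95 and 96 it was 65.4%, 65.5% and 64.7%. LFCR mice 63, 67, 69 and 72 had 63.1%, 62.0%, 47.5% and 41.0%. LFD mice 42, 47 and 48 had 59.6%, 42.7% and 48.4%. ICR mice 102, 103, 105, 106 and 112 had 46.9%, 54.1%, 46.8%, 43.8% and 40.3%, and Obese mouse 22 had 41.2%. LFCR mice 63 and 67 and LFD mouse 42 thus stood close to the MCR mice, whereas LFCR mouse 72, ICR mouse 112 and Obese mouse 22 stood below the highest Control mouse. The group means were 53.4% ± 10.9 in LFCR (SD, n = 4), 50.2% ± 8.6 in LFD (SD, n = 3) and 46.4% ± 5.1 in ICR (SD, n = 5), and the 3 groups overlapped widely. MCR mice spread far less, at 65.2% ± 0.4 (SD, n = 3), but these mice and the Control mice chose the CpGs.

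At single CpGs the same mice stood out. A CpG was counted as past the midpoint when its level was at or above the middle between its own Control and MCR means. That share was 90.7%, 88.9%, 35.6% and 11.0% in LFCR mice 63, 67, 69 and 72, and 83.6%, 17.2% and 39.9% in LFD mice 42, 47 and 48. In ICR mice 102, 103, 105, 106 and 112 it was 35.5%, 71.6%, 35.1%, 19.4% and 9.88%. The mean shares were 56.5% ± 39.7 in LFCR (SD, n = 4), 46.9% ± 33.8 in LFD (SD, n = 3) and 34.3% ± 23.5 in ICR (SD, n = 5), so mice of 1 diet differed by more than the diets' means. The midpoints rest on the Control and MCR values that made the choice. The shares are thus descriptions, and no share over unchosen CpGs stands beside them.

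The chosen CpGs ran against the rest of the measured genome. Over all 120335 CpGs that met the criteria, the mean level was 53.8% to 58.4% in Control mice and 46.8% to 47.5% in MCR mice. LFCR mice 63 and 67, high at the chosen CpGs, had 46.8% and 47.2%, and LFCR mice 69 and 72 had 52.3% and 54.6%. LFD mouse 42 had 48.5%, against 54.7% and 52.7% in LFD mice 47 and 48, and the ICR mice lay between 51.0% and 54.8% with mouse 103 lowest. A further 11383 CpGs had a Control mean within the quartiles of the chosen ones but were not chosen. They averaged 34.0% in Control, 24.0% in MCR, 27.2% in LFCR, 29.6% in LFD and 30.5% in ICR. The choice had already removed from this set every CpG far enough above Control in MCR. Part of its low MCR mean was thus fixed by the choice, so that mean is a description only. Among the 21 libraries, the 3 MCR mice, LFCR mice 63 and 67 and LFD mouse 42 were the 6 highest at the chosen CpGs and the 6 lowest over all CpGs. Among the Control mice, whose values took part in the choice, mouse 10 was highest at the chosen CpGs and lowest over all CpGs, and mouse 2 the reverse. Both axes come from the same library, and the chosen CpGs are part of the whole.

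**Figure D2:**
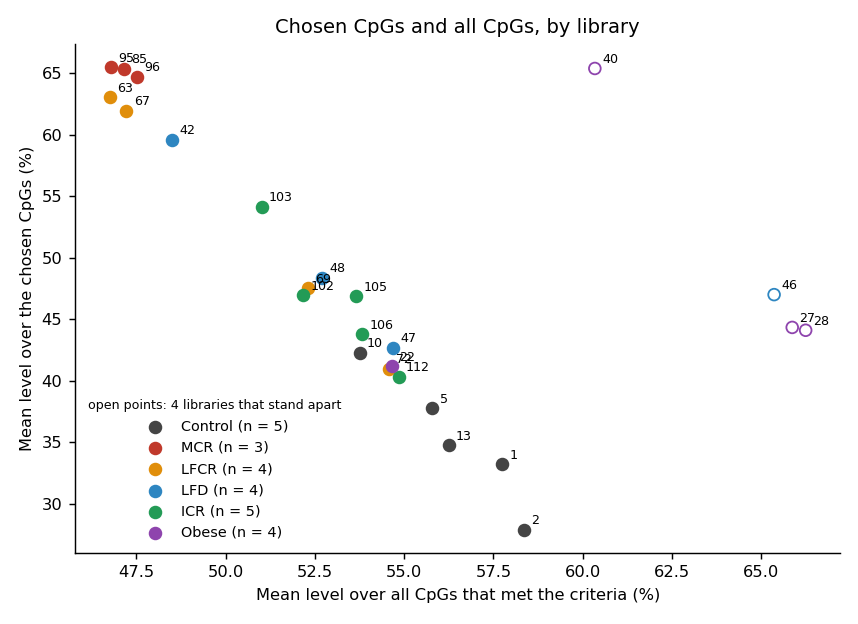
Mean level over the chosen CpGs (vertical axis, %) against the mean level over all CpGs that met the criteria (horizontal axis, %), 1 point per library with its mouse number. The 21 filled points run from Control mouse 2 (27.9% at chosen CpGs, 58.4% over all CpGs) to MCR mouse 95 (65.5% and 46.8%), and the 4 open points, libraries that stand apart, lie to the right.

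The differences among LFCR, LFD and ICR use no mouse that chose the CpGs, so the mean differences at the chosen CpGs come from independent animals. The p-values and standard errors do not, because the fit pools the spread over all groups, Control and MCR included. In limma's moderated test on the 21 libraries, 129215 CpGs could be tested and 3022 of the 3050 were among them. LFCR was above ICR by any amount at 2747 of the 3022 (90.9%), against 28.7% of all CpGs tested. The median difference was 6.92 points at the chosen CpGs and -2.25 points at all CpGs. It was -3.59 points at unchosen CpGs of the same Control level. The choice had removed from that set every CpG far enough above Control in MCR, so it is no neutral baseline. At an unadjusted p under 0.05, 285 of the chosen CpGs (9.43%) were higher in LFCR, against 0.882% of all CpGs, and 4 were lower. No chosen CpG, and no CpG at all, passed a Benjamini-Hochberg adjusted p under 0.05 in limma (0% against 0%), and the smallest adjusted p among the chosen was 0.261. The count rests on single mice: without LFCR mouse 63 it was 78, without LFCR mouse 67 it was 85, and without ICR mouse 112 it was 131, whereas it was 446 without LFCR mouse 69, 492 without ICR mouse 103 and 960 without LFCR mouse 72. The median was 3.66 points without LFCR mouse 63, 4.08 without LFCR mouse 67 and 10.9 without LFCR mouse 72. In a fit of the LFCR, LFD and ICR mice alone, added after the data were seen, 194 (6.42%) were higher in LFCR at an unadjusted p under 0.05 against 0.91% of all CpGs, and none passed adjustment in limma (smallest adjusted p 0.713).

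LFCR was above LFD at 2093 of the 3022 chosen CpGs (69.3%, against 36.5% of all), by a median of 3.21 points. At an unadjusted p under 0.05, 87 (2.88%) were higher in LFCR against 1.38% of all, and none passed the adjusted threshold in limma (0% against 0%; smallest adjusted p 0.662). The median was -0.58 points without LFD mouse 47, 0 without LFCR mouse 63 and 0.46 without LFCR mouse 67, so its direction rests on single mice. It was 5.27, 7.33 and 7.97 points without LFCR mouse 69, LFCR mouse 72 and LFD mouse 42. The count ranged from 30 to 338 as single mice were left out, lowest without LFCR mouse 63 and highest without LFCR mouse 72. LFD was above ICR at 2236 (74%, against 40.8% of all), by a median of 3.77 points. Here 101 (3.34%) were higher at an unadjusted p under 0.05 against 1.36% of all, and none passed adjustment in limma (0% against 0%; smallest adjusted p 0.797). Without LFD mouse 42 that median was -0.87 points and the count 21, without LFD mouse 47 they were 7.73 points and 253, and without ICR mouse 112 the median was 2.22 points. In the fit of the LFCR, LFD and ICR mice alone, 67 (2.22%, against 1.44% of all) were higher in LFCR than in LFD and 77 (2.55%, against 1.42% of all) higher in LFD than in ICR at an unadjusted p under 0.05, with none past the adjusted threshold in limma. A limma adjusted p above the threshold does not show that the diets were alike at these CpGs.

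**Figure D3:**
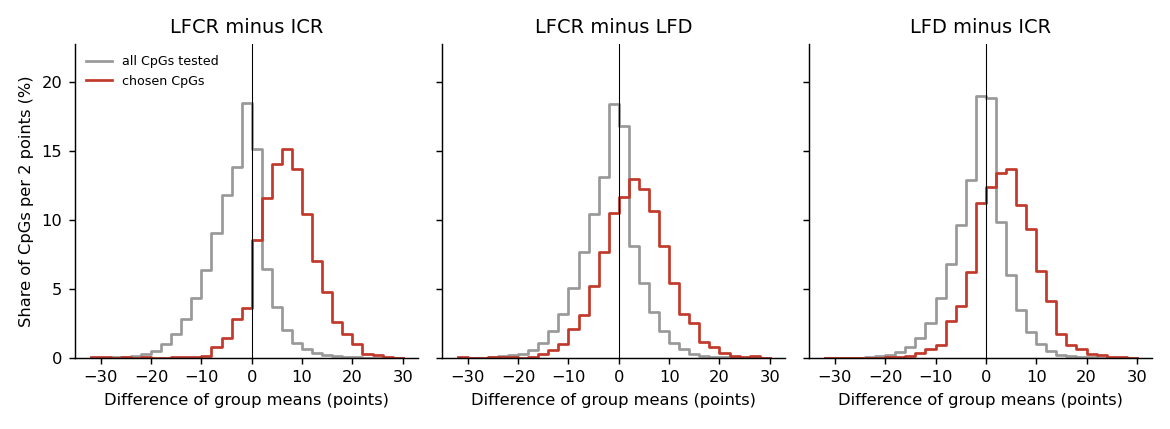
Share of CpGs (%) per bin of 2 points by difference of group means (horizontal axis, percentage points), for the 3022 chosen CpGs and all 129215 CpGs tested, in 3 comparisons among LFCR, LFD and ICR. The end bins hold all larger differences. The chosen CpGs lie to the right, with medians of 6.92, 3.21 and 3.77 points.

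Against Control, the same diets gave larger counts, which share the Control mice with the choice and from which nothing is read. In limma, 1185 of 3022 (39.2%, against 1.48% of all CpGs) were higher in LFCR at an adjusted p under 0.05. That number was 1 without LFCR mouse 63, 2 without mouse 67 and 2061 without mouse 72. In LFD and ICR none of the chosen CpGs passed the adjusted threshold in limma (0% of all CpGs did), and 1532 (50.7%, against 3.17%) and 1127 (37.3%, against 2.31%) were higher at an unadjusted p under 0.05.

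Of single chosen CpGs, those of smallest p in the diet comparisons included some that went against the group. At the CpG of Serpina3m on chromosome 12 at 104351358, LFCR mice 67, 69 and 72 had 10.0%, 8.33% and 0%, with no value in mouse 63, and ICR mice 102, 103, 105, 106 and 112 had 87.5%, 50%, 51.9%, 50% and 68.0%. The groups did not overlap, LFCR was lower by 55.4 points (SE 8.02), and the limma adjusted p was 0.261. At chromosome 8, position 124314232, in Galnt2, which encodes an enzyme that starts mucin-type O-glycans, LFCR mice 63, 67, 69 and 72 had 79.1%, 84.4%, 75.4% and 69.0%, and the ICR mice had 54.9%, 60.6%, 56.9%, 58.2% and 52.8%. Every LFCR mouse was above every ICR mouse there, by 20.3 points on average (SE 3.42), with a limma adjusted p of 0.426. At the CpG in Stac3, a muscle gene of excitation-contraction coupling, LFCR exceeded LFD by 12.8 points (SE 3.34; limma adjusted p 0.873), with 18.4% to 28.3% in LFCR and 9.52% to 12.5% in LFD. At chromosome 10, position 60371576, annotated to Cdh23 and Vsir, LFCR was 24.2 points below LFD (SE 4.98; limma adjusted p 0.662), at 11.8% to 25.0% against 38.1% to 51.2%. None of these passed the threshold.

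The region with most chosen CpGs was in Plekhh3. This gene, which encodes a protein with pleckstrin homology, MyTH4 and FERM domains, held 50 chosen CpGs within 692 bp of its gene body (chr11:101164064-101164755), 45 of them in a CpG island. Their mean in Control mice 1, 2, 5, 10 and 13 was 28.2%, 23.0%, 32.8%, 46.0% and 28.1%, and in MCR mice 85, 95 and 96 it was 74.7%, 74.2% and 74.5%. In LFCR mice 63, 67, 69 and 72 it was 77.7%, 69.8%, 51.2% and 39.2%, in LFD mice 42, 47 and 48 it was 74.6%, 40.6% and 50.7%, and in ICR mice 102, 103, 105, 106 and 112 it was 49.5%, 62.6%, 48.4%, 43.8% and 36.5%. LFCR mouse 63 and LFD mouse 42 reached the MCR level, LFCR mouse 72, LFD mouse 47 and ICR mice 106 and 112 were within the Control range, and LFCR, LFD and ICR overlapped. Control and MCR values chose this region and those below, so positions relative to their ranges are descriptions only.

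Tbx3, a T-box transcription factor required for mammary gland formation, held 41 chosen CpGs in 518 bp (chr5:119680568-119681085), 40 of them in an island. Control mice 1, 2, 5, 10 and 13 had 18.8%, 16.2%, 25.6%, 33.0% and 17.6%, and MCR mice 85, 95 and 96 had 42.9%, 59.7% and 53.0%. LFCR mice 63, 67, 69 and 72 had 64.3%, 57.9%, 32.9% and 29.1%, LFD mice 42, 47 and 48 had 44.5%, 29.3% and 26.2%, and the ICR mice had 37.2%, 45.2%, 33.4%, 38.1% and 31.1%. Here LFCR mouse 63 was above every MCR mouse, and ICR (37.0% ± 5.4, SD, n = 5) was above LFD (33.3% ± 9.8, SD, n = 3), with overlapping ranges.

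Gata3, the transcription factor of luminal mammary cells and of T cells, held 15 chosen CpGs on an island shore in its gene body (chr2:9876619-9877073). The Control mice had 24.9%, 19.4%, 33.2%, 28.0% and 24.3%, and the MCR mice 50.2%, 50.5% and 57.0%. LFCR mice 63, 67, 69 and 72 had 53.9%, 52.7%, 39.3% and 30.2%, LFD mice 42, 47 and 48 had 42.0%, 37.3% and 36.4%, and the ICR mice 32.5%, 45.4%, 33.2%, 35.8% and 31.3%. All 3 LFD mice were between the highest Control and the lowest MCR mouse. Prdm16, a zinc finger factor that directs brown and beige fat, held 15 chosen CpGs in open sea (chr4:154519171-154519889). They averaged 31.9% ± 9.7 in Control (SD, n = 5), 69.7% ± 5.2 in MCR (SD, n = 3), 56.7% ± 13.4 in LFCR (SD, n = 4), 52.7% ± 11.6 in LFD (SD, n = 3) and 47.2% ± 6.4 in ICR (SD, n = 5).

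In each of the other 8 regions with most chosen CpGs, the mean of MCR was above that of LFCR and the mean of ICR above that of Control. The choice took CpGs high in MCR and low in Control, which favours this order in advance, so nothing is read from it. Dusp8, a phosphatase of MAP kinases, had 24 chosen CpGs in an island (chr7:142082221-142082562), at 43.2% ± 8.5 in Control (SD, n = 5) and 76.0% ± 1.8 in MCR (SD, n = 3). Zfp316, a zinc finger gene, had 20 (chr5:143253247-143253646), at 24.1% ± 7.5 and 47.4% ± 1.8, with 33 unchosen CpGs between them. Gse1 had 17 in a shelf (chr8:120532926-120533216) at 23.8% ± 9.5 and 54.0% ± 1.3, and 16 in open sea (chr8:120572535-120572892) at 37.4% ± 9.9 and 80.1% ± 1.8. A region of 16 with no symbol in the deposited table (chr16:17803210-17803806) lies within Scarf2 in RefSeq. Lzts3 had 15 on a shore (chr2:130635829-130636148). Apc2, a relative of the Wnt pathway protein Apc, had 14 (chr10:80304711-80305024) at 16.9% ± 5.8 and 43.8% ± 6.2. Dchs1, a large cadherin that binds Fat4, had 13 (chr7:105762161-105762721) at 60.4% ± 4.5 and 84.8% ± 0.7, with 53 unchosen CpGs among them. In these 8 regions the LFCR mean ran from 32.7% at Apc2 to 74.2% at Dchs1 and the ICR mean from 24.3% to 68.0% at the same genes.

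The regions with the largest differences were shorter and lay mostly in open sea. Cd276 encodes B7-H3, an immune checkpoint protein, and held 3 chosen CpGs within 7 bp of its gene body (chr9:58537349-58537355). Control mice 1, 2, 5, 10 and 13 had 17.2%, 25.3%, 34.2%, 43.0% and 37.6%, and MCR mice 85, 95 and 96 had 82.7%, 97.5% and 99.2%. LFCR mice 63, 67, 69 and 72 had 84.4%, 84.2%, 56.9% and 57.1%, LFD mice 42, 47 and 48 had 86.2%, 53.8% and 60.3%, and the ICR mice 55.8%, 72.2%, 57.2%, 50.5% and 45.2%. All of these 12 mice were above the Control range, and LFCR mice 63 and 67 and LFD mouse 42 were within the MCR range. The region was picked for its low Control and high MCR values, so these positions are descriptions only. The 2 chosen CpGs of largest difference belong to this region, and the next 3 lay in Arhgap30, in Ptprcap and in 4930519G04Rik, with 60.8, 60.8 and 60.5 points. Ptprcap encodes a protein bound to the leukocyte phosphatase CD45, and its CpG on chromosome 19 at 4156313 had 15.2%, 22.2%, 20.8%, 41.7% and 34.8% in the Control mice and 81.0%, 90.0% and 92.3% in the MCR mice.

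Arhgap45 held 9 chosen CpGs (chr10:80017812-80017982). The Control mice had 21.6%, 17.8%, 31.0%, 33.0% and 29.8%, and the MCR mice 76.3%, 80.1% and 74.1%. LFCR mice 63, 67, 69 and 72 had 73.5%, 74.9%, 43.9% and 41.4%, LFD mice 42, 47 and 48 had 66.9%, 31.9% and 45.4%, and the ICR mice 47.1%, 59.6%, 45.8%, 33.5% and 32.9%. LFCR mice 63 and 67 were close to the MCR mice and mice 69 and 72 more than 25 points lower, and LFD mouse 47 and ICR mouse 112 were within the Control range. P2rx7, an ATP-gated channel of macrophages, held 5 (chr5:122678056-122678105), at 40.3% ± 11.7 in Control (SD, n = 4), 90.0% ± 1.7 in MCR (SD, n = 3), 70.2% ± 18.4 in LFCR (SD, n = 4), 69.5% ± 13.1 in LFD (SD, n = 3) and 49.4% ± 14.1 in ICR (SD, n = 5). Arhgap30 held 3 in its 1st exon (chr1:171389568-171389599), at 30.2% ± 14.0 in Control (SD, n = 4) and 79.7% ± 3.6 in MCR (SD, n = 3). Mir142hg, the host gene of the blood cell microRNA miR-142, held 6 (chr11:87757156-87757235), at 30.4% ± 10.7 in Control (SD, n = 5) and 77.6% ± 5.1 in MCR (SD, n = 3). Regions at Ky, a muscle gene, at Shisal1 and at E230001N04Rik had differences of 51.2, 48.6 and 47.8 points. Over the 8 regions the ICR mean ran from 43.8% at Arhgap45 to 56.2% at Cd276.

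**Figure D4:**
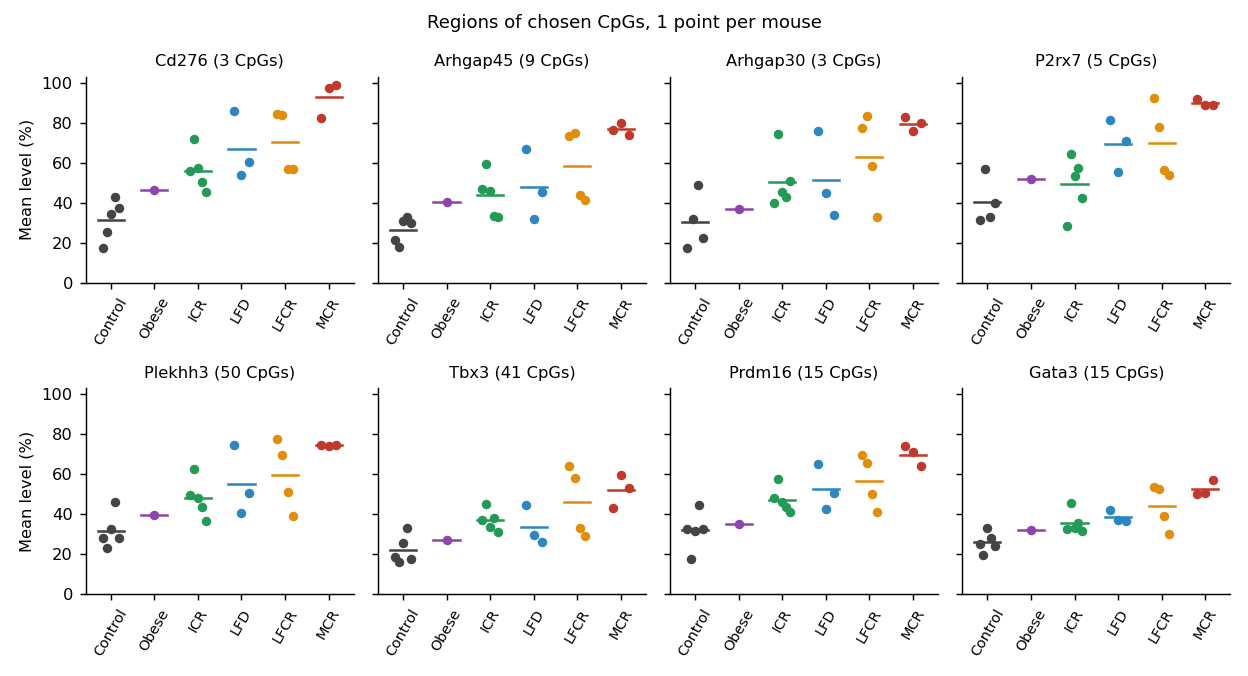
Mean level over the chosen CpGs of 8 regions (%, axis from 0), 1 point per mouse in each of 6 groups, with a line at the group mean; the 4 libraries that stand apart are left out, so Obese is 1 mouse. LFCR splits into a high and a low pair at Cd276, Arhgap45 and Tbx3, and LFD mouse 42 is the high LFD point in each panel shown.

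Gene lists showed where the chosen CpGs concentrated; the lists were drawn up with earlier results of these data known, so their counts are no independent evidence. Over all genes, 914 of 7383 with a CpG that could be chosen had a chosen one (12.4%), and 4.02% of CpGs were chosen. Among general leukocyte markers 5 of 6 genes had one, and 27 of 48 CpGs were chosen (56.2%). Vav1 had 8 of 10, Coro1a, an actin regulator of leukocytes, 7 of 17, Ptpn6, the phosphatase SHP-1, 6 of 10, and Laptm5, a lysosomal protein of blood cells, 5 of 6. The chosen CpGs of Coro1a stood at 28.6% ± 6.9 in Control (SD, n = 5), 69.3% ± 2.8 in MCR (SD, n = 3), 51.6% ± 15.6 in LFCR (SD, n = 4), 47.6% ± 11.4 in LFD (SD, n = 3) and 44.0% ± 10.6 in ICR (SD, n = 5). Those of Ptpn6 stood at 22.0% ± 6.2, 62.1% ± 3.5, 49.2% ± 17.8, 41.0% ± 7.6 and 36.0% ± 5.2 in the same groups. Of genes of leukocyte signalling, 16 of 27 had a chosen CpG, with 116 of 694 CpGs (16.7%), led by Rps6ka1 (20), Nfatc2 and Cbfa2t3 (15 each) and Dok3 (14). In that list 343 of 1045 measured CpGs were lower in MCR by the same size (32.8%, against 19.6% of all), so both directions were frequent.

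Among markers of single cell types, the share of CpGs chosen ran from 0 to 12.5%, and most of these CpGs lay in 1 gene per list. T cell markers had 8 of 164 CpGs chosen (4.88%), 6 of them in Lat, which links the T cell receptor to its signalling chain, and B cell markers 6 of 122 (4.92%), 5 of them in Cd79b, a chain of the B cell receptor complex. Myeloid markers had 4 of 32 (12.5%), all in Spi1, the gene of the factor PU.1. Adipocyte markers had 6 of 51 (11.8%), all in Lipe, which encodes hormone-sensitive lipase. Luminal markers had 15 of 158 (9.49%), all in Gata3, endothelial markers 8 of 109 (7.34%), of which Vwf, the von Willebrand factor gene, had 7, and skeletal muscle markers 2 of 131 (1.53%), both in Myog. Basal epithelial and fibroblast markers had 0 of 21 and 0 of 69. Taken over all their measured CpGs, chosen or not, general leukocyte markers ranged from 46.0% to 50.4% among Control mice and from 60.1% to 61.5% among MCR mice. The ranges were 50.4% to 60.8% for LFCR mice, 50.6% to 55.8% for LFD mice and 50.2% to 57.8% for ICR mice. Of the 70 measured CpGs of general leukocyte markers, 27 were chosen for a higher level in MCR. The choice itself thus made part of this list's difference between Control and MCR. The other 9 marker lists, those of T cells, B cells and myeloid cells among them, were lower in MCR than in Control on average, as were all CpGs that met the criteria (47.1% against 56.4%). T cell markers were at 57.9% to 60.9% in Control mice and 56.9% to 57.9% in MCR mice, B cell markers at 42.4% to 49.1% and 33.4% to 35.6%, myeloid markers at 56.5% to 60.3% and 50.9% to 54.5%, and adipocyte markers at 54.3% to 58.9% and 47.7% to 49.3%. The part that cell make-up plays in the chosen CpGs was not tested.

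Among metabolic and structural lists, lipid synthesis genes had 13 of 103 CpGs chosen (12.6%, against 4.02% of all CpGs). Of these, 11 were in Tecr, an enzyme of fatty acid elongation, and 2 in Dgat2, an enzyme of triglyceride synthesis. Lower in MCR by the same size were 32 of 220 measured CpGs of this list (14.5%), 1 of them in Tecr and 5 in Dgat2. Tecr stood at 39.8% ± 5.5 in Control (SD, n = 5), 68.7% ± 2.9 in MCR (SD, n = 3), 60.2% ± 14.9 in LFCR (SD, n = 4), 55.8% ± 10.4 in LFD (SD, n = 3) and 50% ± 4.8 in ICR (SD, n = 5). Thermogenic fat genes had 28 of 331 (8.46%), of which 27 in Prdm16. In that list 176 of 494 measured CpGs were lower in MCR by the same size (35.6%, against 19.6% of all). Insulin, IGF and mTOR genes had 12 of 214 (5.61%), 7 in Pik3cd and 5 in Pik3r2, both subunits of phosphoinositide 3-kinases. Lower in MCR by the same size were 81 of 336 measured CpGs of this list (24.1%), 13 of them in Pik3cd and 6 in Pik3r2. Zfp genes had 50 of 908 (5.51%), 33 of them in Zfp316. Solute carriers had 42 of 1110 (3.78%), close to the share of all CpGs. Calcium channels had 14 of 509 (2.75%), collagens 9 of 455 (1.98%), Hox genes 16 of 908 (1.76%), 11 of them in Hoxd3, and potassium channels 11 of 664 (1.66%), 6 of them in Kcnj11. Counted by genes with a chosen CpG, the order differed, with 31.6% of calcium channel genes, 22.7% of collagens, 16.2% of Hox genes, 15.7% of solute carriers and 6.12% of potassium channel genes against 12.4% of all genes. These gene shares were not adjusted for the number of CpGs per gene. No CpG was chosen among 602 of imprinted genes, 91 of clustered protocadherins and 78 of the DNA methylation machinery.

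**Figure D5:**
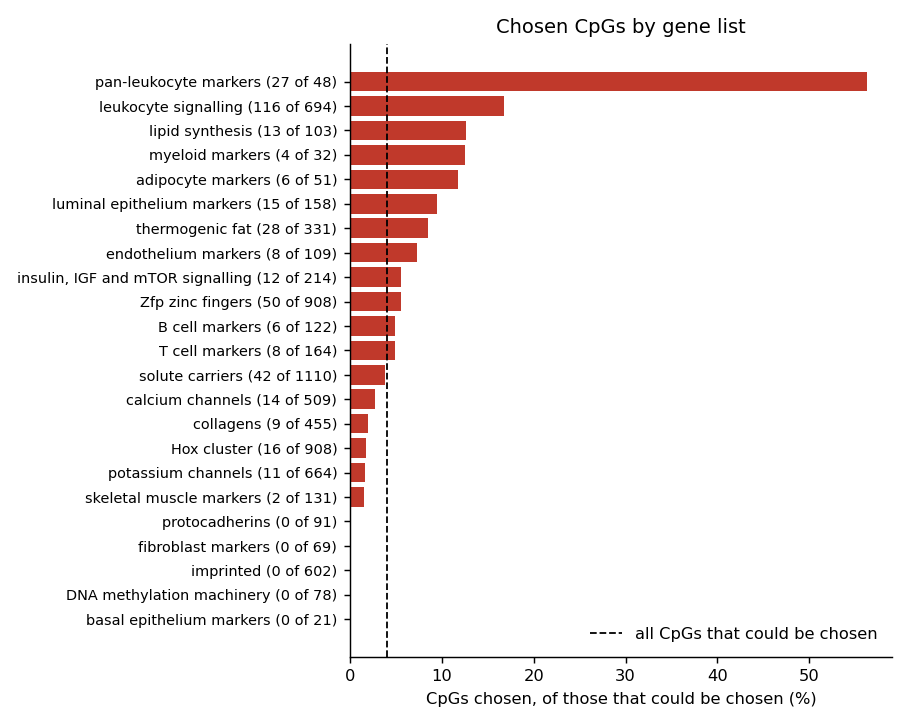
Share of CpGs chosen among those that could have been (%, bars from 0) for the gene lists described, with the numbers beside its name; the dashed line is the 4.02% over all CpGs. General leukocyte markers are at 56.2% and leukocyte signalling genes at 16.7%, and 5 lists are at 0.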

How the data were processed

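Per the labels' protocols, MspI digestion was followed by selection and amplification of 40 to 170 bp fragments. Per the submitters' processing notes, Bismark and mm10 were used; versions and filters are not given in the sources used here. The authors deposited 1 table with the methylation level per CpG and library as a fraction, shown here in percent, and an average coverage signal per CpG over 21 libraries. Coverage per library is not known, so no binomial intervals were computed. The deposited group percent columns were not used. Rows that repeat a CpG for another gene were merged, and groups were taken from the library names in the titles. The members and lists were chosen with earlier results of these data known. The genes named were the 12 regions with most members, the 8 regions of at least 3 members with the largest mean difference, the 5 single CpGs of largest difference, the 3 on either side of the limit, up to 4 genes per list with most members and the 5 CpGs of smallest p per comparison; the text gives part of these. The promoter windows were added. CpGs with coverage of at least 10 reads and at least 3 values in Control, LFD, LFCR, MCR and ICR were fitted with limma 3.58.1 (R 4.3.3) on the fraction, 1 term per group, two-sided, with Benjamini-Hochberg adjustment over all 129215 CpGs; the fit was checked on simulated levels. Labels do not say whether mice shared cages or litters. Alternatives were coverage of at least 5 or 20, a difference of 30 points, all 5 Control values, medians, equal weight per region, an arcsine square root scale, all 25 libraries, complete values and leaving out each mouse; a fit of the LFCR, LFD and ICR mice alone and those for diet against Control, makeup and lists were added after seeing the data. In limma the coverage alternatives left the 129215 fitted CpGs unchanged and affected only which chosen CpGs were counted. Python 3.11.15 and pandas 2.3.3 made the tables. 1 gene list is not reported here.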

Additional observations from a re-analysis of the deposited data

Results flagged for a closer look

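Over the chosen CpGs, Obese mouse 40 had a mean level of 65.4%, far from the other 3 Obese mice at 41.2% to 44.3% (gap over range 0.870, limit 0.829 for 4 mice). It is 1 of the 4 libraries that stand apart and has a value at 57.7% of the chosen CpGs. At the Stac3 CpG at 127508587 on chromosome 10, ICR mouse 102 had 8.16% and the other 4 ICR mice 15.9% to 17.2% (gap over range 0.853, limit 0.710 for 5 mice). In all, 70 groups of mice were examined in this way and chance alone picks out about 1 in 20.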

How the results depend on the processing

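With a limit of 30 points 1256 CpGs were chosen, 66.5% of them in open sea; leaving out 1 MCR or Control mouse gave 2385 to 3912 CpGs, an open sea share of 60.8% to 65.2% and 24 to 34 chosen CpGs in general leukocyte markers. Group means over the chosen CpGs moved by less than 1 SD with medians, coverage of at least 20 or equal weight per region. Leaving out 1 mouse cannot move a group mean by 1 SD, so that limit tests nothing there. With single mice left out the LFCR mean was 50.1% to 57.5%, the LFD mean 45.5% to 54.0% and the ICR mean 44.5% to 47.9%. Adjusted limma calls of chosen CpGs among LFCR, LFD and ICR were 0 under every alternative run. The coverage alternatives are no separate check here, because the 129215 fitted CpGs were the same in each. They changed only which chosen CpGs were counted, with 3008 at coverage of at least 20 against 3022. The counts at an unadjusted p ranged with single mice left out from 78 to 960 for LFCR above ICR, from 30 to 338 for LFCR above LFD and from 21 to 253 for LFD above ICR, and the cause was not tested. The medians ranged from 3.66 to 10.9, from -0.58 to 7.97 and from -0.87 to 7.73 points; the sign turned without LFD mouse 47 for LFCR against LFD, where it was 0 without LFCR mouse 63, and without LFD mouse 42 for LFD against ICR. Against Control, LFCR calls were 682 with all 25 libraries and 1 to 2061 without single mice, LFD calls 0 to 5 (5 without LFD mouse 47, 1 without mouse 48) and ICR calls 0. No paired analysis was possible because no mouse number occurs in more than 1 group. Unknown depth per library limits the precision of every single value.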
